A study of Mus musculus with 35 samples.

Results

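ESC-derived 3D EpiSCs were compared with EpiLCs, which are both mouse pluripotent cells obtained from embryonic stem cells (ESCs). The comparison rests on 6 bulk RNA-seq libraries, 3 of each culture, out of 35 samples in the series, and on the 12418 of 54446 genes in the expression table that were autosomal and had a value above 2 TPM in at least 3 of these 6 libraries. TPM (transcript share scaled to a fixed total per library) corrects for transcript length. The ESC-derived 3D EpiSCs (epiblast stem cells grown as spheroids) were kept in drops of Matrigel, a basement membrane extract, with FGF2, Activin A, the Wnt pathway inhibitor XAV and the BMP antagonist Noggin. The EpiLCs (epiblast-like cells) were ESCs grown as a 2D culture for 48 h with FGF2 and Activin A, without either inhibitor. The labels give every library as wild-type. The study's methods describe the 3D cultures as passaged lines that are released from Matrigel with enzymes at each passage, and its text calls the in vitro cultures isogenic without naming the line sequenced. Dimension, medium, inhibitors and time in culture changed together between the groups, so their parts in a difference cannot be told apart. Embryo-derived 3D EpiSCs (started from epiblasts in the same medium and matrix) and 2D EpiSCs (FGF2 and Activin A, no inhibitors), with 3 libraries each, give levels for reference.

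Pluripotency passes through several states from before implantation to gastrulation. Naive cells resemble the epiblast before implantation. Formative cells, for which EpiLCs are the common model, have left that state, express de novo DNA methyltransferases and can still form germ cells. Primed cells, for which EpiSCs are the model, resemble the epiblast around the start of gastrulation, keep Oct4 (Pou5f1) under FGF and Activin, and begin to express genes of the primitive streak, the site where mesoderm and endoderm arise. DNA methylation spreads over the genome during the same interval and silences many germline promoters.

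The 3 ESC-derived 3D EpiSC libraries were not equally close to each other. Replicates 1 and 2 differed by a median of 0.07 log2 units per gene, while replicate 3 differed from them by 0.28 and 0.25, and the EpiLC replicates differed from each other by 0.17 to 0.22. Whether replicates 1 and 2 were separate cultures is not stated in the labels, so p-values measure the spread between these libraries, which may be technical. An alternative analysis averaged replicates 1 and 2 as 1 library. It also averaged the close pairs of the reference groups, embryo-derived 3D EpiSC replicates 2 and 3 (0.06) and 2D EpiSC replicates 1 and 2 (0.07). With these pairs averaged, 636 genes were called higher and 929 lower, against 593 and 982 below. Replicate 3 of the ESC-derived 3D EpiSCs stood apart at named genes. Cer1, a secreted antagonist of Nodal, BMP and Wnt that marks endoderm, stood at 2.44, 2.36 and 119 TPM in replicates 1, 2 and 3. The 15 endoderm markers together summed to 7.00, 7.19 and 149 TPM in the ESC-derived 3D EpiSC libraries and to 11.3 to 15.7 TPM in the EpiLC libraries, and 9 of the 15 were at or under 2 TPM in all 6. Cer1 is one of the 15, and the other 14 summed to 4.57, 4.82 and 29.5 TPM and to 11.3 to 15.7 TPM. The part of such cells in the results was not tested. The 5 pluripotent cell markers summed to between 2073 and 2735 TPM in all 6 libraries, and the 8 fibroblast markers to 14.4 to 19.08 TPM in ESC-derived 3D EpiSCs and 35.8 to 45.3 TPM in EpiLCs. Of 9 neuroectoderm and 9 trophoblast markers, 8 and 7 were at or under 2 TPM in all 6 libraries. Between 22243 and 22337 genes had a TPM above 0 in the ESC-derived 3D EpiSC libraries and between 24300 and 24438 in the EpiLC libraries. In bulk libraries, fewer cells of a type and less RNA per cell cannot be told apart.

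Of the 12418 genes, 593 were higher (4.78%) and 982 were lower (7.91%) in ESC-derived 3D EpiSCs than in EpiLCs. These shares apply beside every list count below. At such rates a long list would hold a few called members whatever its theme. The thresholds were a log2 fold change beyond 1 in size and, with limma on log2(TPM + 1), a p-value under 0.05 after Benjamini-Hochberg adjustment, and the median over all genes tested was -0.001. The lower genes moved further: 137 of them fell by more than 3 log2 units, whereas 21 of the higher genes rose by more than 3. Among the lower genes, 387 (39.4%) had a mean under 1 TPM in ESC-derived 3D EpiSCs and 53 were listed at 0 in all 3 of their libraries. Only 57 of the higher genes (9.61%) had a mean under 1 TPM in EpiLCs, and none was listed at 0 in all 3 EpiLC libraries. For 465 of the lower genes every ESC-derived 3D EpiSC library lay at or under 2 TPM, and for 105 of the higher genes every EpiLC library did, so these genes entered the comparison through 1 culture alone and had to differ.

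**Figure D1:**
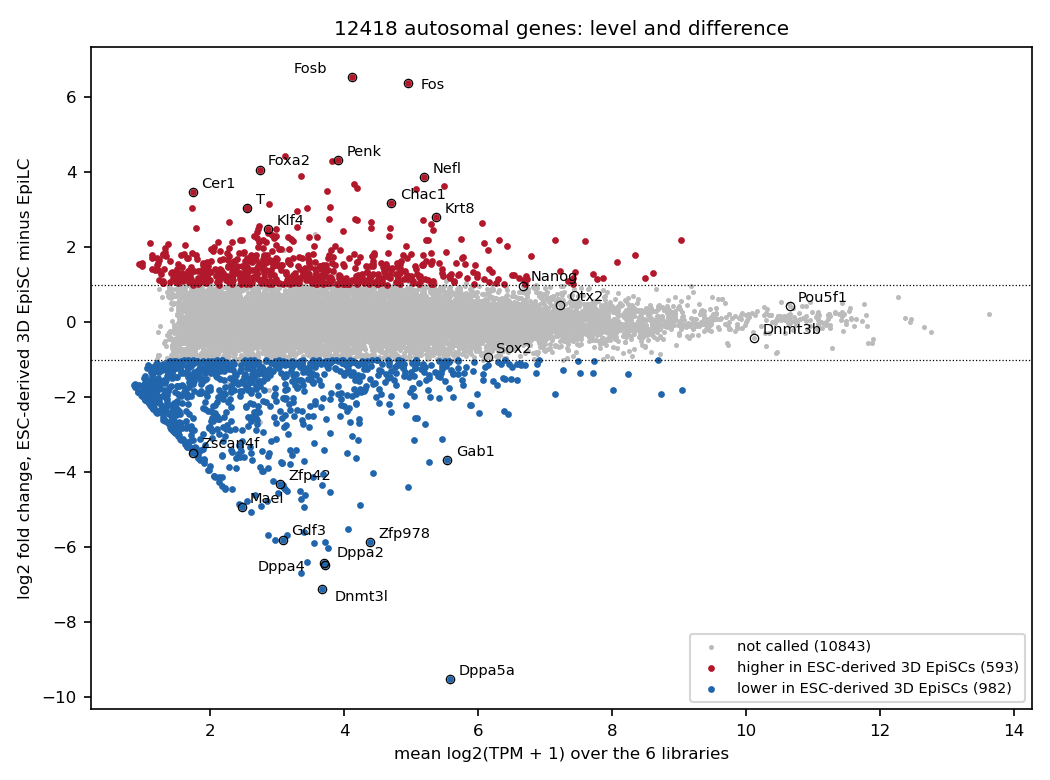
Mean level over the 6 libraries as log2(TPM + 1) on the x axis and the log2 fold change, ESC-derived 3D EpiSC minus EpiLC, on the y axis, with 1 point per gene, the 593 higher genes in red, the 982 lower genes in blue, and dotted lines at a fold change of 1 and -1. Named genes are circled. The lower genes reach down to -9.53 at Dppa5a, while Pou5f1 and Dnmt3b lie between the dotted lines at the right, and the slanted lower left edge holds genes listed at or near 0 in ESC-derived 3D EpiSCs.

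The general pluripotency factors were present in both cultures. Pou5f1 (Oct4) stood at 1930.1, 1936 and 1754 TPM in ESC-derived 3D EpiSCs and at 1309, 1506 and 1353 TPM in EpiLCs (log2 fold change 0.43 ± 0.09 SE, adjusted p = 0.00325), which is under the size threshold. Nanog had 153, 148 and 125 TPM against 78.8, 72.7 and 63.7 TPM (log2 fold change 0.97 ± 0.17 SE, adjusted p = 7.32e-04). Sox2 had 56.8, 56.3 and 39.1 TPM against 99.0, 73.3 and 126 TPM (log2 fold change -0.94 ± 0.19 SE, adjusted p = 0.00182). The libraries of the groups did not overlap for any of the 3 genes and none passed a log2 change of 1. Nanog passed the threshold without ESC-derived 3D EpiSC replicate 3 or EpiLC replicate 1 (log2 fold change 1.04 to 1.06, adjusted p of 0.00102 to 0.00178). Sox2 was called without ESC-derived 3D EpiSC replicate 1 or 2 or EpiLC replicate 2 (log2 fold change -1.14 to -1.03, adjusted p of 4.41e-04 to 0.00349). Of 13 core pluripotency factors tested, none was higher and 2 were lower, with a list median of -0.23, where 7.91% of all genes tested were lower. Both lower genes, Dppa2 and Dppa4, encode partner chromatin proteins that keep certain promoters free of DNA methylation. Both passed the filter in EpiLCs alone, so their passing it and their direction are linked. Dppa2 fell from 118, 117 and 124 TPM in EpiLCs to 0.325, 0.385 and 0.486 TPM in ESC-derived 3D EpiSCs (log2 fold change -6.43 ± 0.14 SE, adjusted p = 1.01e-10). Dppa4 fell from 123, 149.6 and 100.4 TPM to 0.222, 0.128 and 0.930 TPM (log2 fold change -6.48 ± 0.23 SE, adjusted p = 2.22e-09).

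Factors of the naive state separated the cultures more than the general ones. Dppa5a, an RNA-binding protein of naive cells, showed the largest fall of any gene tested. Its values were 1021, 1659 and 1320.1 TPM in EpiLCs and 0.971, 0.549 and 0.811 TPM in ESC-derived 3D EpiSCs (log2 fold change -9.53 ± 0.20 SE, adjusted p = 1.01e-10). Zfp42 (Rex1), a standard reporter gene for the naive state, had 34.3, 38.98 and 35.5 TPM in EpiLCs and 1.22, 0.922 and 0.461 TPM in ESC-derived 3D EpiSCs (log2 fold change -4.34 ± 0.15 SE, adjusted p = 2.10e-09). Esrrb, an orphan nuclear receptor of the naive network, had 8.84, 10.7 and 12.3 TPM and 0.860, 0.641 and 0.330 TPM (log2 fold change -2.85 ± 0.16 SE, adjusted p = 1.12e-07). Of 13 naive factors tested out of 19 listed, 7 were lower and 2 were higher, with a median of -2.85, and 6 of the 13 passed the filter in EpiLCs alone. The other lower members were Gbx2, Dppa3, Fgf4 and Pecam1, with log2 fold changes from -3.61 to -3.11. Fgf4, the FGF ligand made by the epiblast itself, remained at 10.3, 9.55 and 10.6 TPM in ESC-derived 3D EpiSCs against 89.6, 102 and 101 TPM in EpiLCs.

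The 2 naive-listed genes that moved the other way were Krüppel-like factors. Klf4 had 14.99, 13.8 and 20.6 TPM in ESC-derived 3D EpiSCs and 2.31, 1.83 and 2.10 TPM in EpiLCs (log2 fold change 2.49 ± 0.19 SE, adjusted p = 1.34e-06). Klf2 had 8.61, 8.10 and 11.8 TPM and 1.81, 2.12 and 3.37 TPM (log2 fold change 1.62 ± 0.23 SE, adjusted p = 2.07e-04). Both groups of libraries were fully separate for each gene. In embryo-derived 3D EpiSCs the means were 16.99 and 11.05 TPM, and in 2D EpiSCs 3.54 and 1.46 TPM.

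Genes of the early post-implantation epiblast were mostly shared. Of 21 formative and early post-implantation factors, 1 was higher, 3 were lower and 17 were not called, with a median of 0.15, and 2 were higher without ESC-derived 3D EpiSC replicate 3 or EpiLC replicate 3. Otx2, a homeodomain factor of the exit from naive pluripotency, had 159, 157 and 208 TPM in ESC-derived 3D EpiSCs and 129.8, 134 and 118 TPM in EpiLCs (log2 fold change 0.45 ± 0.12 SE, adjusted p = 0.00946). Fgf5, the classical marker of this stage, had 252, 243 and 194 TPM and 137, 134 and 153 TPM (log2 fold change 0.69 ± 0.11 SE, adjusted p = 3.71e-04). Neither passed the size threshold. Pou3f1 (Oct6) was lower, at 66.7, 64.2 and 40.0 TPM against 161, 149 and 179.7 TPM (log2 fold change -1.53 ± 0.17 SE, adjusted p = 3.24e-05), as were Tcf15 (log2 fold change -2.50 ± 0.27 SE, adjusted p = 1.96e-05) and the methyltransferase gene Dnmt3a. Car4, a carbonic anhydrase, was the higher member, at 288, 293.7 and 252 TPM against 100.4, 139 and 92.3 TPM (log2 fold change 1.34 ± 0.18 SE, adjusted p = 1.34e-04). Primordial germ cell genes also lay lower: 5 of the 7 tested were called lower and none higher, among them Ifitm1 (log2 fold change -3.14 ± 0.41 SE, adjusted p = 9.81e-05), Ifitm3 (log2 fold change -2.38 ± 0.20 SE, adjusted p = 2.55e-06) and Dnd1 (log2 fold change -1.82 ± 0.28 SE, adjusted p = 2.96e-04). Among all genes tested 7.91% were lower, and 1 of the 7 passed the filter in EpiLCs alone. Prdm1, the specifier of germ cell fate, was lower on the mean (log2 fold change -1.05 ± 0.31 SE, adjusted p = 0.0188) with overlapping libraries, and this call was lost in 6 of 15 alternative analyses. Prdm1 lost its call without ESC-derived 3D EpiSC replicate 1 or 2 or EpiLC replicate 3 (log2 fold change -0.98 to -0.82, adjusted p of 0.0624 to 0.0741).

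**Figure D2:**
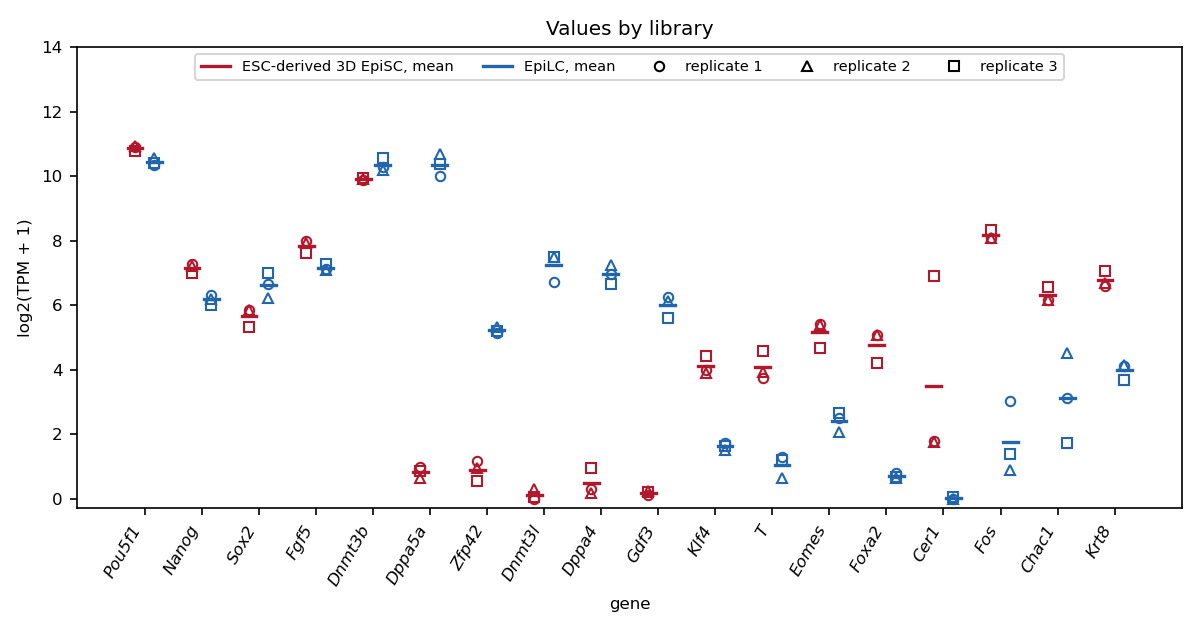
Level of 18 genes as log2(TPM + 1) in each library, ESC-derived 3D EpiSCs in red and EpiLCs in blue, with circles, triangles and squares for replicates 1, 2 and 3 and bars for group means. Pou5f1, Nanog, Sox2, Fgf5 and Dnmt3b differ by less than 1 log2 unit between group means, and Dppa5a to Gdf3 are near 0 only in ESC-derived 3D EpiSCs. The replicates spread most at Cer1 in ESC-derived 3D EpiSCs and at Chac1 and Fos in EpiLCs.

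Most of the germline genes tested were lower in ESC-derived 3D EpiSCs. Many of these encode proteins of meiosis or of piRNA defence, others encode further proteins used in germ cells, and most are silenced by promoter methylation in somatic cells. Of 31 listed genes 24 were tested, 21 were lower and 2 were higher, where 7.91% of all genes tested were lower. The median was -3.11, and -2.85 over the 17 genes that were not listed at 0 throughout 1 group. For 20 of the 24, only EpiLC libraries exceeded 2 TPM, so that their passing the filter and their direction are linked. The 21 lower genes remained lower with any single library left out and under every other alternative that tested them.

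Mael, a piRNA pathway protein, was listed at 0 in all 3 ESC-derived 3D EpiSC libraries and had 23.7, 34.5 and 32.4 TPM in EpiLCs. Hormad1, a meiotic chromosome axis protein, was likewise listed at 0 and had 14.7, 27.4 and 21.9 TPM in EpiLCs. Dazl, an RNA-binding protein of germ cells, had 0.0702, 0 and 0 TPM in ESC-derived 3D EpiSCs and 11.6, 12.3 and 15.1 TPM in EpiLCs (log2 fold change -3.77 ± 0.10 SE, adjusted p = 2.78e-10). Ddx4 (Vasa), a germ cell RNA helicase, had 0.112, 0.0325 and 0 TPM and 13.6, 9.39 and 10.3 TPM (log2 fold change -3.51 ± 0.12 SE, adjusted p = 1.56e-09). Sycp3, part of the synaptonemal complex that joins meiotic chromosomes, kept the highest level of the 21 in ESC-derived 3D EpiSCs, at 2.17, 1.84 and 0.714 TPM against 25.2, 21.4 and 18.9 TPM in EpiLCs (log2 fold change -3.19 ± 0.21 SE, adjusted p = 3.87e-07). The other members called lower were Rpl10l, Tuba3a, Tex19.1, Fkbp6, Syce1, Sohlh2, D1Pas1, Meioc, Stk31, Cyct, Slc25a31, Tuba3b, Mov10l1, Piwil2, Tdrd1 and Sycp1. Tdrkh, a Tudor protein that binds PIWI proteins, went the other way, at 20.4, 18.8 and 33.4 TPM in ESC-derived 3D EpiSCs and 3.80, 5.21 and 3.31 TPM in EpiLCs (log2 fold change 2.27 ± 0.21 SE, adjusted p = 6.05e-06), as did the helicase gene Ddx25 (log2 fold change 1.06 ± 0.16 SE, adjusted p = 3.04e-04). Ddx25 lost its call without ESC-derived 3D EpiSC replicate 3 (log2 fold change 0.93, adjusted p of 0.00102).

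The 15 largest falls included Rpl10l, Mael and 2 further genes used in the germline, Rpl39l and Morc1. Rpl39l and Rpl10l are autosomal copies of ribosomal protein genes used in the testis. Rpl39l was listed at 0 in all ESC-derived 3D EpiSC libraries and had 52.1, 122 and 175 TPM in EpiLCs, and Rpl10l had 0.127, 0 and 0 TPM against 40.2, 72.5 and 66.7 TPM. Reads of such copies can be shared with their parent genes, so these values are uncertain. Morc1, a transposon silencing factor of male germ cells, had 0, 0.149 and 0.0166 TPM and 23.7, 44.1 and 38.8 TPM (log2 fold change -5.07 ± 0.18 SE, adjusted p = 2.29e-09). The genes of the transient state that resembles the embryo at the 2-cell stage were tested only where EpiLC libraries exceeded the filter, so their direction was fixed by it. Zscan4c, Zscan4d, Zscan4e and Zscan4f, near-identical copies whose reads may be split between them, were listed at 0 in all 3 ESC-derived 3D EpiSC libraries. Zscan4f had 17.7, 4.93 and 11.7 TPM in EpiLCs. These 4 were the members tested out of 17 listed.

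Promoter windows of called genes were searched for short motifs, and the E-box CACGTG, a hexamer with a central CpG that MYC and MAX family proteins bind, was frequent at germline genes. Of the 25 RefSeq windows (250 bases before the annotated start, build GRCm38) of 20 lower germline genes, 14 held CACGTG (56.0%), from 10 genes. The same hexamer, which reads alike on both strands, occurred in 8.42% of the 11221 windows of genes tested and in 6.02% of all 31396 autosomal windows. A gene with several annotated starts has several windows, which can overlap, so these shares describe letters and are no test. The other motifs sought on both strands were TGATGCAA, TGATGAAA and TGACGTCA, which were in none of the 25, and the ETS site CCGGAAGT, in 1 (4.00%, against 6.27% of windows of genes tested). Windows of Sycp3 and Hormad1, each with 2 copies, and of Dnmt3l are shown because they carry the hexamer in the 250 bases before the start of genes called lower in ESC-derived 3D EpiSCs, with CACGTG in capitals, 5′ to 3′ on the gene's strand.
Sycp3, chr10:88459337-88459586, plus strand: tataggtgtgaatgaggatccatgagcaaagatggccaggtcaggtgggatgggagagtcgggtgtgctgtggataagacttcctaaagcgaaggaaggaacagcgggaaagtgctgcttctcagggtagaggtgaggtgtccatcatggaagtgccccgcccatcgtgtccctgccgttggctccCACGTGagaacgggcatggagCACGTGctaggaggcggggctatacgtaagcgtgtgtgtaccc
Hormad1, chr3:95559427-95559676, plus strand: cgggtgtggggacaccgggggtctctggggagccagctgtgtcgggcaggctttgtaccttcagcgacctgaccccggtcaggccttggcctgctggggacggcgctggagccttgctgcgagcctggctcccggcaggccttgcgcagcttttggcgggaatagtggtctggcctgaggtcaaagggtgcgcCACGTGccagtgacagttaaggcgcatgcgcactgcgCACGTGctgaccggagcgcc
Dnmt3l, chr10:78049592-78049841, plus strand: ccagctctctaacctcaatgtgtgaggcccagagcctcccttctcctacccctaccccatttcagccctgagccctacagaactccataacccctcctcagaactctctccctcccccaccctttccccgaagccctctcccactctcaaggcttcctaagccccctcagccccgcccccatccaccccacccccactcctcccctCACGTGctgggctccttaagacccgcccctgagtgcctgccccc

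The machinery of DNA methylation itself differed in part. Dnmt3l, the catalytically inactive cofactor of the de novo methyltransferases, had the second largest fall, from 105, 178 and 179.9 TPM in EpiLCs to 0, 0.220 and 0.0331 TPM in ESC-derived 3D EpiSCs (log2 fold change -7.12 ± 0.23 SE, adjusted p = 1.18e-09). Dnmt3a, one of these enzymes, was lower at 60.8, 81.9 and 74.6 TPM against 188, 191 and 577 TPM (log2 fold change -1.92 ± 0.37 SE, adjusted p = 0.00145). Dnmt3b, the other, stayed abundant, at 939.6, 964 and 975 TPM against 1236, 1172 and 1507 TPM (log2 fold change -0.43 ± 0.10 SE, adjusted p = 0.00458), under the size threshold. Of 11 genes tested, 5 were lower and none higher, with a median of -0.99, where 7.91% of all genes tested were lower. Of these 5, Dnmt3l passed the filter in EpiLCs alone. The other 3 were the cytidine deaminase gene Apobec3 (log2 fold change -2.23 ± 0.10 SE, adjusted p = 1.09e-08), the chromatin remodeler gene Hells (log2 fold change -1.36 ± 0.11 SE, adjusted p = 1.42e-06) and Tet1, which encodes an enzyme that oxidises methylcytosine (log2 fold change -1.09 ± 0.17 SE, adjusted p = 3.99e-04). In embryo-derived 3D EpiSCs and 2D EpiSCs the mean of Dnmt3l was 0.123 and 0.390 TPM. Tet1 was not called without ESC-derived 3D EpiSC replicate 2 or EpiLC replicate 1 (log2 fold change -0.98, adjusted p of 0.00227 to 0.00230).

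Of the 15 largest falls, 5 were zinc finger genes of a single stretch of chromosome 4, which led to a description of that stretch, chosen after the values were seen. KRAB zinc finger proteins bind and silence transposable elements, and their genes lie in clusters of close copies. Between chr4:145410245 and 147809788 (mm10, 2.4 Mb), 39 genes were tested. All 18 with a zinc finger symbol were lower, and with the other gene models 30 of 39 were lower and none higher. Over all genes tested 7.91% were lower. Of the 18, Zfp980, Zfp600, Zfp981, Rex2, Zfp982, Zfp986, Zfp987, Zfp988 and Zfp989 were above 2 TPM in EpiLC libraries only. For these, passing the filter and direction are linked, and the same holds for some of the other gene models. The 18 summed to 127, 118 and 123 TPM in the ESC-derived 3D EpiSC libraries and to 1291, 1264 and 1822 TPM in the EpiLC libraries. The sums were thus separate by a wide margin between groups and close within the ESC-derived 3D EpiSCs. Zfp980 had 0.545, 0.569 and 0.948 TPM in ESC-derived 3D EpiSCs and 98.6, 93.8 and 138 TPM in EpiLCs (log2 fold change -6.03 ± 0.17 SE, adjusted p = 4.28e-10). Rex2 had 0.466, 0.508 and 0.591 TPM and 77.5, 77.8 and 121 TPM (log2 fold change -5.90 ± 0.16 SE, adjusted p = 3.12e-10), and Zfp978, Zfp600 and Zfp981 changed by -5.88, -5.87 and -5.62. Of the 18, Zfp990 and Zfp984 kept the highest levels in ESC-derived 3D EpiSCs, at 38.1, 33.9 and 37.3 TPM and 28.8, 32.3 and 29.9 TPM. Reads of near-identical copies may be shared among them, so single values are uncertain, whereas the sum is less affected.

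The same 18 genes summed to a mean of 72.6 TPM in embryo-derived 3D EpiSCs and 128 TPM in 2D EpiSCs. In epiblasts sequenced with another kit, the means were 577 TPM at E4.5, 170.0 TPM at E5.5 and 106 TPM at E6.5. Over all genes tested 7.91% were lower and 4.78% higher. Of the 363 genes tested with a zinc finger symbol (Zfp, Zscan, Zkscan, Zik1 and Rex2), 54 were lower (14.9%) and 10 higher (2.75%). Outside the stretch of chromosome 4 these were 36 of 345 lower (10.4%) and 10 higher (2.90%). Among 1133 windows of 2 Mb, the largest count of lower genes was 22 of 35, on chromosome 4, followed by 13 of 36 and 13 of 25 in windows of chromosomes 13 and 2.

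**Figure D3:**
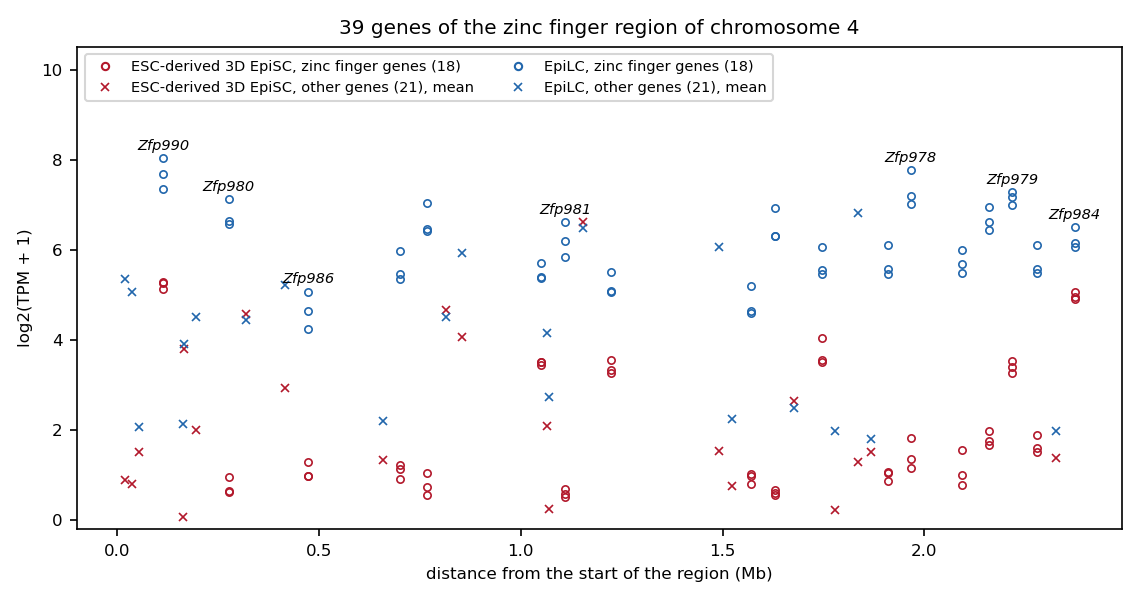
Level as log2(TPM + 1) of the 39 genes of the chromosome 4 stretch against distance from its start in Mb, ESC-derived 3D EpiSCs in red and EpiLCs in blue, with circles for each library of the 18 zinc finger genes and crosses for group means of the other 21. Every zinc finger gene has its 3 EpiLC circles above its 3 ESC-derived 3D EpiSC circles, and several of the other gene models lie together in both colours.

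Another compact locus among the lower genes was the miR-290 to miR-295 cluster of chromosome 7, the main microRNA cluster of early embryonic cells, again described after its values were seen. Poly-A libraries do not measure mature microRNAs, and the values are fragments of the primary transcript that fall on the hairpins. Mir294 had 4.80, 6.59 and 5.32 TPM in ESC-derived 3D EpiSCs and 21.5, 14.3 and 18.2 TPM in EpiLCs (log2 fold change -1.52 ± 0.15 SE, adjusted p = 1.05e-05). Mir291b (log2 fold change -1.36 ± 0.46 SE, adjusted p = 0.0322), Mir292 (log2 fold change -1.04 ± 0.24 SE, adjusted p = 0.00425), Mir293 (log2 fold change -1.70 ± 0.34 SE, adjusted p = 0.00218) and Mir295 (log2 fold change -1.33 ± 0.38 SE, adjusted p = 0.0144) were also lower, and the other 4 hairpin models of the cluster did not pass the filter. Mir291b lost its call without ESC-derived 3D EpiSC replicate 1, 2 or 3 or EpiLC replicate 1 or 2 (log2 fold change -1.42 to -0.93, adjusted p of 0.0527 to 0.132). Mir292 was not called without ESC-derived 3D EpiSC replicate 2 or EpiLC replicate 3 (log2 fold change -0.88 to -0.79, adjusted p of 0.0152 to 0.0210). Mir295 was not called without ESC-derived 3D EpiSC replicate 3 or EpiLC replicate 1 (log2 fold change -1.15 to -0.79, adjusted p of 0.0180 to 0.0573). The 3p arms of 4 lower loci, from RefSeq on GRCm38, are shown with the seed (bases 2 to 8) in capitals, since a seed sets which sites a microRNA can pair with. The seed of miR-294 and miR-295 is the same, and those of miR-291b and miR-293 each differ from it.
miR-294-3p, chr7:3220691-3220712, plus strand: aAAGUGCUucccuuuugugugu
miR-295-3p, chr7:3220815-3220837, plus strand: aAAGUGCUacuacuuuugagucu
miR-291b-3p, chr7:3219529-3219550, plus strand: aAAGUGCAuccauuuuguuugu
miR-293-3p, chr7:3220390-3220411, plus strand: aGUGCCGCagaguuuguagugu

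Genes of the primitive streak were higher in ESC-derived 3D EpiSCs. T (Brachyury), the defining factor of the streak, had 12.3, 14.1 and 22.98 TPM in ESC-derived 3D EpiSCs and 1.46, 0.554 and 1.28 TPM in EpiLCs (log2 fold change 3.04 ± 0.35 SE, adjusted p = 3.78e-05). Eomes, a related T-box factor needed for definitive endoderm, had 41.3, 40.7 and 24.6 TPM and 4.67, 3.19 and 5.31 TPM (log2 fold change 2.75 ± 0.27 SE, adjusted p = 1.13e-05). Gsc (Goosecoid), an organizer factor, had 6.37, 5.95 and 16.1 TPM and 0, 0.0999 and 0.387 TPM (log2 fold change 3.05 ± 0.28 SE, adjusted p = 5.84e-06). For each of the 3, all libraries of ESC-derived 3D EpiSCs lay above all of EpiLCs. Of 24 listed genes 11 were tested, 8 were higher and none lower, with a median of 2.58 (4.78% of all genes tested were higher). The number higher was 7 without ESC-derived 3D EpiSC replicate 3 or any 1 of the EpiLC replicates. Of the 11, 5 passed the filter in ESC-derived 3D EpiSCs alone. The signalling ligands among the higher genes were Wnt3, at 15.5, 15.9 and 14.5 TPM against 2.54, 1.03 and 1.82 TPM (log2 fold change 2.58 ± 0.23 SE, adjusted p = 5.08e-06), and Fgf8, at 100.3, 104 and 47.5 TPM against 16.1, 12.8 and 21.3 TPM (log2 fold change 2.20 ± 0.28 SE, adjusted p = 7.82e-05). Mixl1 passed the threshold as well (log2 fold change 1.22 ± 0.30 SE, adjusted p = 0.00668), and lost its call in 2 of 15 alternatives. Mixl1 lost its call without ESC-derived 3D EpiSC replicate 3 (log2 fold change 0.96, adjusted p of 0.0240).

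Foxa2, a forkhead factor of the anterior streak and endoderm, was among the 15 largest rises. It had 32.6, 32.5 and 17.2 TPM in ESC-derived 3D EpiSCs and 0.721, 0.559 and 0.602 TPM in EpiLCs (log2 fold change 4.07 ± 0.32 SE, adjusted p = 1.82e-06), and was lowest in replicate 3, where Cer1 was highest. Cer1 was called (log2 fold change 3.46 ± 1.10 SE, adjusted p = 0.0242), and its fold rested largely on replicate 3. Without that library its log2 fold change was 1.75 with an adjusted p of 0.0110. Cer1 was not called without EpiLC replicate 1, 2 or 3 (log2 fold change 3.46 to 3.48, adjusted p of 0.0565 to 0.0602). The endoderm factors Sox17 and Gata6 did not pass the filter. Sox17 had 0.262, 0.235 and 6.73 TPM in ESC-derived 3D EpiSCs and 0.0815, 0.261 and 0.299 TPM in EpiLCs, and Gata6 had 0.0628, 0.118 and 5.42 TPM and 0.214, 0.143 and 0.227 TPM, so both were above 2 TPM in replicate 3 of the ESC-derived 3D EpiSCs and in no other of the 6 libraries. In embryo-derived 3D EpiSCs and 2D EpiSCs the mean of T was 32.7 and 32.1 TPM and that of Foxa2 74.5 and 29.3 TPM. Cer1 averaged 164 TPM in the embryo-derived 3D EpiSCs and 349.5 TPM in the 2D EpiSCs. For Cer1 and T, replicate 3 thus lay nearer to these cultures than replicates 1 and 2 did. For Foxa2 the reverse held, and replicates 1 and 2 lay nearer to both.

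Of 5 endoderm genes tested, Foxa2, Cer1 and Trh were higher and 1, Dab2, was lower. Foxa2 and Cer1 passed the filter in ESC-derived 3D EpiSCs alone and Dab2 in EpiLCs alone. For these genes, passing the filter and direction are linked. Dab2, an endocytic adaptor of visceral endoderm, had 1.08, 1.46 and 1.68 TPM in ESC-derived 3D EpiSCs and 9.21, 5.77 and 9.68 TPM in EpiLCs (log2 fold change -1.92 ± 0.17 SE, adjusted p = 5.56e-06). Trh, which encodes thyrotropin-releasing hormone, had 867, 871 and 1865 TPM against 347, 197 and 214 TPM (log2 fold change 2.19 ± 0.28 SE, adjusted p = 7.98e-05). Of 6 neuroectoderm genes tested, 3 were higher and none lower, and these 3 encode intermediate filament proteins. The neurofilament gene Nefl had 196, 189 and 73.1 TPM in ESC-derived 3D EpiSCs and 13.3, 6.11 and 7.68 TPM in EpiLCs (log2 fold change 3.87 ± 0.37 SE, adjusted p = 8.73e-06), its neighbour Nefm had 60.1, 57.2 and 24.6 TPM and 4.30, 2.51 and 2.41 TPM (log2 fold change 3.49 ± 0.30 SE, adjusted p = 3.57e-06), and Nes (nestin) changed by 1.79. The transcription factor genes that define neuroectoderm did not pass the filter. Sox1 had 0.126, 0.101 and 0.0556 TPM in ESC-derived 3D EpiSCs and 1.62, 1.55 and 0.756 TPM in EpiLCs, and Pax6 0.143, 0.0733 and 0 TPM and 1.09, 0.576 and 1.62 TPM. None of the 39 Hox genes in the table passed the filter.

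Wnt and BMP responses were compared because the 3D medium holds inhibitors of both. Of 10 Wnt target genes tested, T was higher and the others were not called, with a median of 0.14. Axin2, a direct target of beta-catenin, had 8.95, 8.47 and 7.02 TPM in ESC-derived 3D EpiSCs and 6.94, 6.22 and 7.98 TPM in EpiLCs (log2 fold change 0.18 ± 0.20 SE, adjusted p = 0.490), with overlapping libraries. Among 18 ligands, receptors and antagonists of the pathway, 4 were higher and none lower: Wnt3, the Frizzled receptor genes Fzd2 (log2 fold change 1.07 ± 0.12 SE, adjusted p = 3.17e-05) and Fzd8 (log2 fold change 1.20 ± 0.17 SE, adjusted p = 1.76e-04), and Wls, which carries Wnt proteins to the cell surface, at 16.1, 15.3 and 16.8 TPM against 2.55, 1.87 and 2.76 TPM (log2 fold change 2.34 ± 0.13 SE, adjusted p = 8.16e-08). Fzd2 was not called without ESC-derived 3D EpiSC replicate 2 (log2 fold change 0.99, adjusted p of 2.27e-04).

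The BMP list had 14 genes tested, 3 higher and 1 lower, with a median of 0.45. Id1 and Id3, direct targets of BMP signalling, had 10.8, 8.17 and 14.3 and 26.5, 27.2 and 17.9 TPM in ESC-derived 3D EpiSCs and 4.59, 4.65 and 8.68 and 17.3, 13.9 and 11.7 TPM in EpiLCs, with log2 fold changes of 0.81 (adjusted p = 0.0517) and 0.69 (adjusted p = 0.0407) that were not called. Id2 (log2 fold change 1.21 ± 0.25 SE, adjusted p = 0.00233), the inhibitory Smad gene Smad6 (log2 fold change 1.19 ± 0.15 SE, adjusted p = 8.36e-05) and the secreted antagonist gene Chrd (log2 fold change 1.72 ± 0.29 SE, adjusted p = 5.99e-04) were higher, and the ligand gene Bmp4 was lower (log2 fold change -1.24 ± 0.28 SE, adjusted p = 0.00390). The 2D EpiSCs, grown without Noggin, had means of 72.0 TPM for Id1 and 54.7 TPM for Id3. Id1 passed the threshold without EpiLC replicate 3 (log2 fold change 1.08, adjusted p of 0.0222). Id2 lost its call without EpiLC replicate 2 (log2 fold change 0.91, adjusted p of 0.00470). Bmp4 was not called without ESC-derived 3D EpiSC replicate 2 (log2 fold change -0.96, adjusted p of 0.0142).

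Both media contained Activin A, and most genes of the Nodal and Activin pathway did not pass the threshold: 3 of 24 were higher and 2 lower, with a median of 0.21. Nodal had 61.6, 60.8 and 42.6 TPM in ESC-derived 3D EpiSCs and 47.8, 44.7 and 57.7 TPM in EpiLCs (log2 fold change 0.12 ± 0.16 SE, adjusted p = 0.566), and its feedback antagonist Lefty1 had 192, 188 and 208 TPM and 175, 114 and 199 TPM (log2 fold change 0.30 ± 0.21 SE, adjusted p = 0.259). Lefty2 was not called either (log2 fold change -0.52 ± 0.21 SE, adjusted p = 0.0689). Among the higher genes were Furin, a convertase that processes Nodal (log2 fold change 1.42 ± 0.14 SE, adjusted p = 1.24e-05), and the feedback gene Pmepa1 (log2 fold change 1.62 ± 0.17 SE, adjusted p = 1.54e-05). Gdf3, a ligand related to Nodal, fell from 75.3, 68.4 and 47.2 TPM in EpiLCs to 0.0697, 0.171 and 0.159 TPM in ESC-derived 3D EpiSCs (log2 fold change -5.81 ± 0.16 SE, adjusted p = 3.12e-10), and Skil, a corepressor of Smad proteins, was also lower (log2 fold change -1.11 ± 0.17 SE, adjusted p = 2.90e-04). Gdf3 was above 2 TPM in EpiLC libraries only, so its passing the filter and its direction are linked. Skil was not called without EpiLC replicate 3 (log2 fold change -0.91, adjusted p of 6.07e-04).

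In the FGF pathway 2 of 23 genes were higher and 3 lower, with a median of 0.14, but 1 was lower without EpiLC replicate 1 and 1 was higher without EpiLC replicate 3. The shares over all genes tested were 4.78% higher and 7.91% lower. Fgf8 rose and Fgf4 fell, and their order reversed: the means of Fgf4 and Fgf8 were 10.1 and 83.9 TPM in ESC-derived 3D EpiSCs and 97.5 and 16.7 TPM in EpiLCs. Of 14 Notch pathway genes, 2 were higher and 2 lower. Of the 14, 1 (Dll1) passed the filter in EpiLCs alone and 1 in ESC-derived 3D EpiSCs alone, which links passing it and direction. The ligand gene Dll1 fell from 25.1, 14.6 and 35.8 TPM in EpiLCs to 1.21, 1.24 and 1.11 TPM in ESC-derived 3D EpiSCs (log2 fold change -3.49 ± 0.27 SE, adjusted p = 1.63e-06), and Mfng, which modifies Notch receptors, was lower (log2 fold change -1.97 ± 0.13 SE, adjusted p = 2.91e-07), while the target genes Nrarp (log2 fold change 1.43 ± 0.18 SE, adjusted p = 7.81e-05) and Hey1 (log2 fold change 1.69 ± 0.18 SE, adjusted p = 2.39e-05) were higher. Of 12 LIF and STAT3 pathway genes, Junb was higher and Gbx2 and Pim1 were lower (log2 fold change -1.24 ± 0.23 SE, adjusted p = 0.00122 for Pim1). The retinoic acid list had 2 of 10 genes lower, the binding protein genes Crabp1 and Crabp2, with log2 fold changes of -1.09 and -1.03, and 1 gene was higher without ESC-derived 3D EpiSC replicate 3. Crabp1 was not called without ESC-derived 3D EpiSC replicate 1 or 2 or EpiLC replicate 1 or 2 (log2 fold change -1.03 to -0.81, adjusted p of 0.0771 to 0.113). Crabp2 was not called without ESC-derived 3D EpiSC replicate 1 or 2 or EpiLC replicate 2 (log2 fold change -0.996 to -0.98, adjusted p of 0.00378 to 0.00394).

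**Figure D4:**
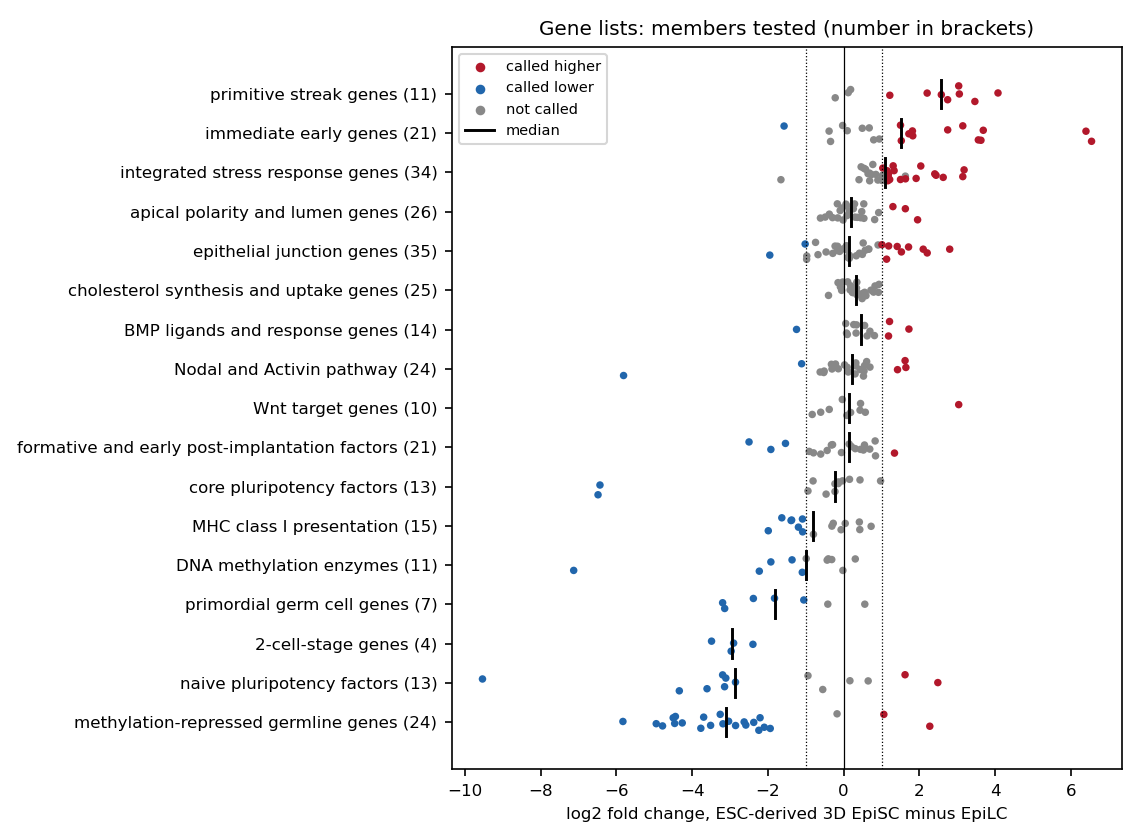
Log2 fold change, ESC-derived 3D EpiSC minus EpiLC, of each tested member of 17 gene lists, with 1 point per gene (red called higher, blue called lower, grey not called), a bar at each list's median and dotted lines at -1 and 1. Germline and naive genes lie to the left with medians of -3.11 and -2.85, streak and immediate early genes to the right with medians of 2.58 and 1.52, and genes listed at 0 in all ESC-derived 3D EpiSC libraries are drawn at their fitted value.

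Immediate early genes, which are transcribed within minutes of a growth factor or mechanical stimulus without new protein synthesis, included the 2 largest rises of all. Fosb had 151, 160.3 and 193 TPM in ESC-derived 3D EpiSCs and 3.44, 0.0743 and 0.236 TPM in EpiLCs (log2 fold change 6.54 ± 0.57 SE, adjusted p = 3.75e-06). Fos had 267, 270.0 and 319 TPM and 7.18, 0.840 and 1.59 TPM (log2 fold change 6.40 ± 0.48 SE, adjusted p = 1.17e-06). Their partner Jun had 46.6, 44.6 and 118 TPM and 6.01, 2.66 and 3.73 TPM (log2 fold change 3.69 ± 0.42 SE, adjusted p = 3.27e-05), and the zinc finger factor Egr1 had 176, 172 and 129 TPM and 19.6, 4.44 and 18.0 TPM (log2 fold change 3.62 ± 0.50 SE, adjusted p = 1.47e-04). In each case the ESC-derived 3D EpiSC libraries were all high, and EpiLC replicates 1 to 3 were all low but unequal. Of 21 genes tested, 12 were higher and 1 was lower (Ier5, log2 fold change -1.57 ± 0.20 SE, adjusted p = 9.84e-05), with a median of 1.52. The share of higher genes over all genes tested was 4.78%. Every analysis with a library left out gave 12 or 13 higher genes. Cyr61, a matricellular target of both serum response factor and YAP, had 117, 117 and 112 TPM against 13.5, 7.47 and 6.86 TPM (log2 fold change 3.56 ± 0.20 SE, adjusted p = 1.08e-07), and Junb, Zfp36, Dusp1, Klf6, Maff, Egr2 and Atf3 completed the list. The mean of Fos was 284 TPM in embryo-derived 3D EpiSCs, 53.6 TPM in 2D EpiSCs and 3.20 TPM in EpiLCs. In the same order, the means of Jun were 38.5, 45.4 and 4.13 TPM and those of Cyr61 103, 310 and 9.27 TPM. The 2D EpiSCs thus also lay above EpiLCs for these genes, so levels above EpiLCs were not particular to the 3D cultures. The part of the enzymatic release of the 3D cultures from Matrigel was not tested.

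Genes of the integrated stress response, in which the factor ATF4 drives amino acid supply, were often higher. Where 4.78% of all genes tested were higher, 17 of the 34 tested on this list were higher and none lower, with a median of 1.10. This count was 11 without ESC-derived 3D EpiSC replicate 3, 11 without EpiLC replicate 3, each time with 1 gene lower, and up to 19 with another library left out. Chac1, a glutathione-degrading enzyme and sensitive target of ATF4, had 70.7, 71.0 and 93.1 TPM in ESC-derived 3D EpiSCs and 7.71, 21.7 and 2.31 TPM in EpiLCs (log2 fold change 3.18 ± 0.51 SE, adjusted p = 4.37e-04). Trib3, a pseudokinase that feeds back on ATF4, had 56.1, 51.4 and 76.8 TPM and 13.7, 28.3 and 6.82 TPM (log2 fold change 2.04 ± 0.45 SE, adjusted p = 0.00390). All ESC-derived 3D EpiSC libraries exceeded all EpiLC libraries for both, although the EpiLC libraries differed from each other by several fold and EpiLC replicate 2 was the highest of them. Atf3 was steadier, at 21.2, 20.5 and 21.0 TPM and 1.404, 2.57 and 0.768 TPM (log2 fold change 3.15 ± 0.24 SE, adjusted p = 1.14e-06).

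Atf4 itself had 529.7, 532 and 567 TPM in ESC-derived 3D EpiSCs and 236, 304 and 192 TPM in EpiLCs (log2 fold change 1.17 ± 0.16 SE, adjusted p = 1.19e-04). The enzymes of serine synthesis followed, with Phgdh at 310.2, 336 and 417 TPM against 163, 191 and 118 TPM (log2 fold change 1.18 ± 0.24 SE, adjusted p = 0.00230) and Psat1 at 519, 516 and 876 TPM against 247, 314 and 198 TPM (log2 fold change 1.31 ± 0.30 SE, adjusted p = 0.00474). Asparagine synthetase, Asns, had 249.5, 246 and 569 TPM and 147, 227 and 94.8 TPM, with a log2 fold change of 1.15 and an adjusted p of 0.04995, just under the threshold, that was lost in 9 of 15 alternatives. The mitochondrial enzyme gene Pck2 (log2 fold change 2.63 ± 0.36 SE, adjusted p = 1.34e-04), the secreted factor gene Stc2 (log2 fold change 2.44 ± 0.22 SE, adjusted p = 5.59e-06), the lipoprotein receptor gene Vldlr (log2 fold change 2.41 ± 0.29 SE, adjusted p = 5.57e-05), the cystine transporter gene Slc7a11 (log2 fold change 1.63 ± 0.31 SE, adjusted p = 0.00133) and Slc1a4, Cth, Mef2b, Aldh18a1, Sars and Slc6a9 were the others. In embryo-derived 3D EpiSCs and 2D EpiSCs the mean of Chac1 was 111 and 3.92 TPM, and that of Trib3 142 and 9.87 TPM, so the 3D cultures were high and the 2D cultures low. Without ESC-derived 3D EpiSC replicate 3, Aldh18a1, Asns, Cth, Mef2b, Sars and Slc6a9 lost their calls (log2 fold change 0.75 to 1.35, adjusted p of 0.0281 to 0.171). Without EpiLC replicate 1, Asns lost its call (log2 fold change 1.15, adjusted p of 0.104). Without EpiLC replicate 3, Aldh18a1, Asns, Cth, Mef2b, Phgdh and Slc6a9 lost their calls (log2 fold change 0.81 to 1.41, adjusted p of 0.0115 to 0.183).

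The composite site of ATF4 and C/EBP factors, TGATGCAA, was sought on both strands in the same promoter windows. It was found in 4 of 20 windows (20.0%) of the 16 higher stress response genes with a window, compared with 0.499% of the windows of genes tested and 0.726% of all autosomal windows. The variant TGATGAAA occurred in 1 of the 20, and CACGTG in 1. The list was chosen for a response that ATF4 drives, and its members that were not called were not counted. These shares therefore describe letters and are no test. Among 16 windows of the higher immediate early genes, the CREB and ATF site TGACGTCA was in 2 (12.5%, against 2.73% of windows of genes tested) and CACGTG in 4 (25%). The windows of Slc7a11 with 2 copies, one on each strand, and of Chac1 and Atf3 are shown because each of these genes was higher in all 3 libraries, with the site in capitals (TTGCATCA when it lies on the opposite strand).
Slc7a11, chr3:50443614-50443863, minus strand: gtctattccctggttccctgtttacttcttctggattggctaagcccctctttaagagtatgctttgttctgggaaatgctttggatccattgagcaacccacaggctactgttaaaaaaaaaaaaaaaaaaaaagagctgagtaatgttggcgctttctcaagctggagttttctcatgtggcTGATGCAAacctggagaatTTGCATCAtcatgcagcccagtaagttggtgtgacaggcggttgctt
Chac1, chr2:119350992-119351241, plus strand: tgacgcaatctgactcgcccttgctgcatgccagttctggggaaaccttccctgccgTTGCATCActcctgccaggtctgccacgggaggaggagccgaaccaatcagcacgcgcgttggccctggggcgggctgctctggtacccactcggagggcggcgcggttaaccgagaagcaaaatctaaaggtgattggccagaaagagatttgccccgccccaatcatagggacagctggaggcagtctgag
Atf3, chr1:191183334-191183583, minus strand: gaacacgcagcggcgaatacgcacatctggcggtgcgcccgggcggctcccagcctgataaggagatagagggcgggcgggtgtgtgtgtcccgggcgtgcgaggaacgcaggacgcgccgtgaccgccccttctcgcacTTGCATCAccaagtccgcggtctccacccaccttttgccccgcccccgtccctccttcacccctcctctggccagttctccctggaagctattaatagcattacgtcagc

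**Figure D5:**
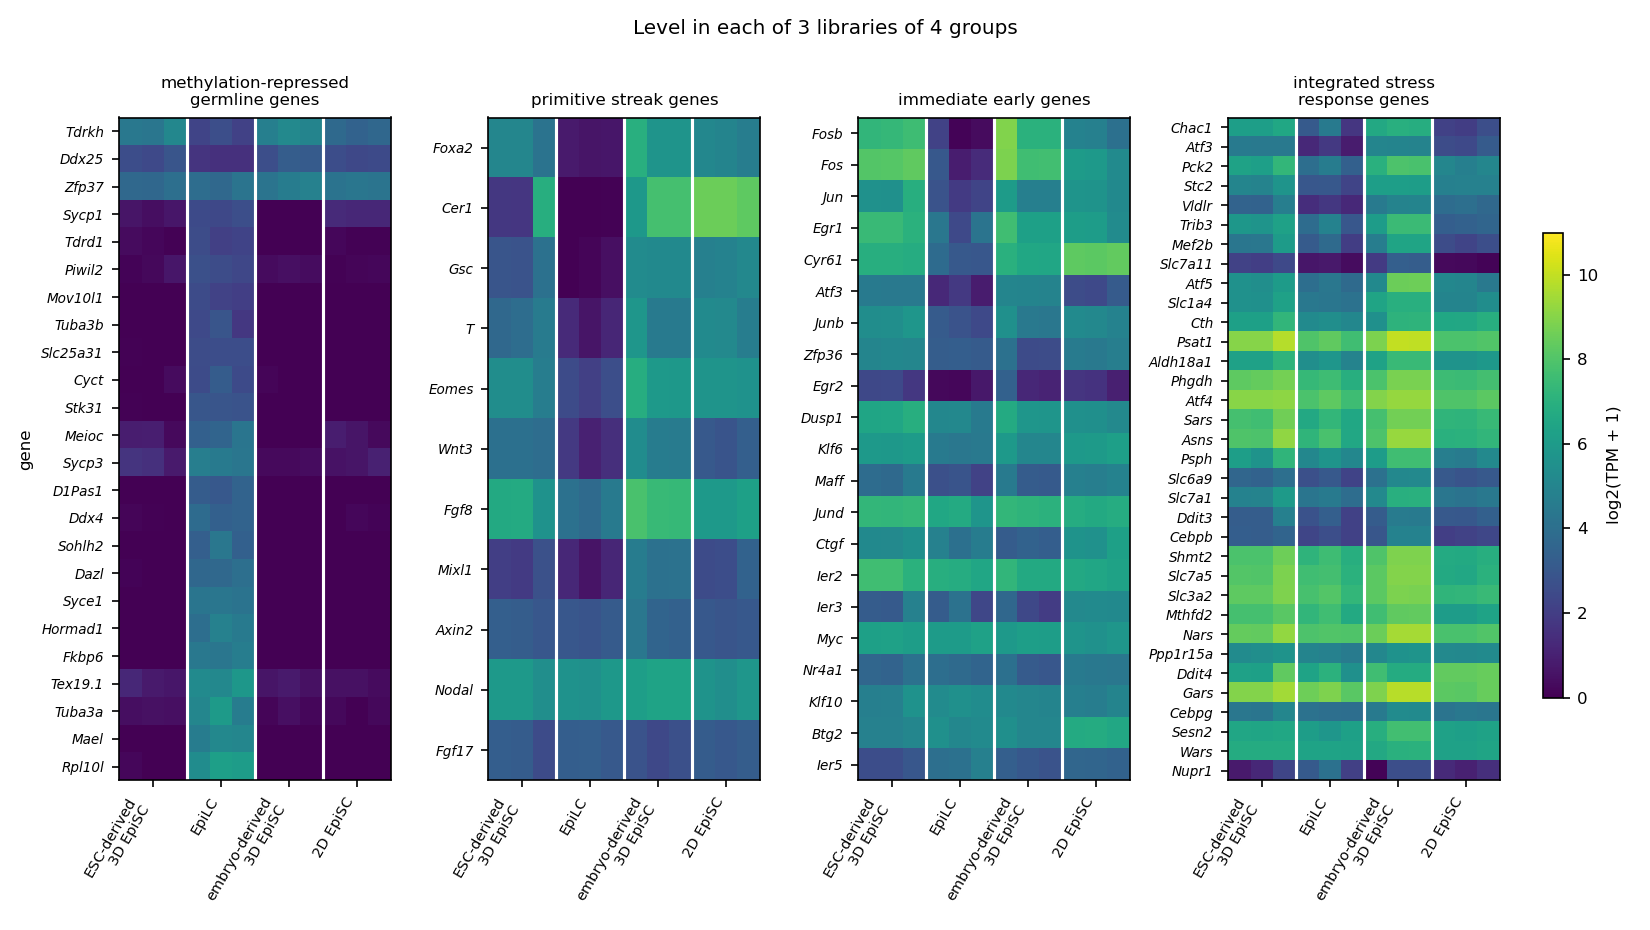
Level as log2(TPM + 1), by colour, of every tested member of 4 gene lists (rows, ordered by log2 fold change) in the 3 libraries of each of 4 groups (columns, replicates 1 to 3 from left to right, with white lines between groups). EpiLCs stand out by colour in the germline panel and by low values of the streak genes, Fos and Fosb, while in the stress response panel EpiLC replicate 2 is brighter than EpiLC replicate 3.

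Other stress and metabolic lists moved less. Of 21 NRF2 antioxidant genes, 2 were higher and 1, the quinone reductase gene Nqo1, was lower (log2 fold change -1.48 ± 0.33 SE, adjusted p = 0.00357), with 1 higher when either of ESC-derived 3D EpiSC replicates 1 and 2 or EpiLC replicate 2 was left out. No cholesterol gene of 25 tested was called by limma in either direction, with a median of 0.34, and 9 of the 25 had an unadjusted p below 0.05. The number higher was 2 without ESC-derived 3D EpiSC replicate 3, 1 without EpiLC replicate 1 and 3 with library weights. The 25 genes summed to 5620, 5597 and 3536 TPM in ESC-derived 3D EpiSCs and to 3704 to 3922 TPM in EpiLCs, so replicate 3 lay below the EpiLC libraries and replicates 1 and 2 above them. Of 24 glycolysis genes, 1 was higher and 2 lower. Both counts ran from 1 to 3 with a library left out, and without EpiLC replicate 2, 3 were higher and 1 lower, while without ESC-derived 3D EpiSC replicate 1 or 2, 2 were higher and 1 lower. Without EpiLC replicate 1 there was 1 of each. The lactate dehydrogenase gene Ldhb fell from 438, 499.8 and 514 TPM in EpiLCs to 147, 149 and 117 TPM in ESC-derived 3D EpiSCs (log2 fold change -1.81 ± 0.13 SE, adjusted p = 6.43e-07). Among 21 HIF targets, 4 were higher (Vegfa, Ndrg1, P4ha1 and Egln1) and Pdk1 was lower. Vegfa, the vascular growth factor, had 40.7, 38.9 and 76.8 TPM against 9.50, 13.3 and 3.51 TPM (log2 fold change 2.53 ± 0.38 SE, adjusted p = 2.65e-04), and the number of higher HIF targets ranged from 1 to 5 with a library left out (1 without EpiLC replicate 3, 2 without ESC-derived 3D EpiSC replicate 3). Nqo1 was not called without ESC-derived 3D EpiSC replicate 3 (log2 fold change -0.97, adjusted p of 9.58e-05). Ndrg1 lost its call without EpiLC replicate 3 (log2 fold change 1.6, adjusted p of 0.0549). P4ha1 lost its call without ESC-derived 3D EpiSC replicate 3 or EpiLC replicate 3 (log2 fold change 0.96 to 1.28, adjusted p of 0.0327 to 0.0588). Egln1 lost its call without ESC-derived 3D EpiSC replicate 3 or EpiLC replicate 3 (log2 fold change 0.88 to 0.89, adjusted p of 0.0499 to 0.0627). Pdk1 was not called without ESC-derived 3D EpiSC replicate 1 or 2 or EpiLC replicate 1 or 2 (log2 fold change -1.29 to -1.01, adjusted p of 0.0647 to 0.0974).

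Epithelial genes were examined because the 3D cells form polarised spheroids around a lumen. E-cadherin, Cdh1, was abundant in both, at 347, 351 and 409.8 TPM in ESC-derived 3D EpiSCs and 568, 482 and 479 TPM in EpiLCs (log2 fold change -0.46 ± 0.11 SE, adjusted p = 0.00436), under the size threshold. Of 35 junction genes, 9 were higher and 2 lower, with a median of 0.15, and 6 were higher and 4 lower without ESC-derived 3D EpiSC replicate 3. Without replicate 1 or 2 of the ESC-derived 3D EpiSCs 1 was lower. The simple keratin genes Krt8 and Krt18, which encode the partner filaments of early epithelia, rose together: Krt8 had 95.6, 101 and 131 TPM against 16.3, 16.6 and 11.7 TPM (log2 fold change 2.80 ± 0.16 SE, adjusted p = 8.96e-08) and Krt18 146, 148 and 229 TPM against 35.2, 45.4 and 29.5 TPM (log2 fold change 2.21 ± 0.20 SE, adjusted p = 5.50e-06). The tight junction gene Cldn7 had 151, 149 and 122 TPM against 35.6, 37.6 and 24.2 TPM (log2 fold change 2.10 ± 0.16 SE, adjusted p = 1.18e-06). Marveld3, Marveld2, Krt19 and the desmosome genes Dsp, Dsc2 and Dsg2 were higher by 1.01 to 1.71 log2 units. Cldn5 and Cgn (cingulin) were lower (log2 fold change -1.02 ± 0.21 SE, adjusted p = 0.00285 for Cgn). Cgn lost its call without ESC-derived 3D EpiSC replicate 1 or 2 or EpiLC replicate 1 or 3 (log2 fold change -0.96 to -0.89, adjusted p of 0.0130 to 0.0141). Krt19 lost its call without ESC-derived 3D EpiSC replicate 3 or EpiLC replicate 1, 2 or 3 (log2 fold change 0.68 to 1.24, adjusted p of 0.0569 to 0.0744). Dsg2 was not called without ESC-derived 3D EpiSC replicate 3 or EpiLC replicate 3 (log2 fold change 0.86 to 0.99, adjusted p of 0.00146 to 0.00763). Marveld2 was not called without ESC-derived 3D EpiSC replicate 3 or EpiLC replicate 3 (log2 fold change 0.85 to 0.99, adjusted p of 3.47e-05 to 2.47e-04).

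Of 26 apical polarity and lumen genes, 3 were higher and none lower. These were Crb3, a Crumbs protein of the apical membrane, at 63.2, 70.1 and 74.2 TPM against 24.0, 25.8 and 16.3 TPM (log2 fold change 1.63 ± 0.15 SE, adjusted p = 5.91e-06), Rab25 (log2 fold change 1.30 ± 0.17 SE, adjusted p = 1.01e-04) and Anxa2 (log2 fold change 1.95 ± 0.48 SE, adjusted p = 0.00636). Prkci, the atypical protein kinase C of the apical complex, was not called (log2 fold change -0.49 ± 0.13 SE, adjusted p = 0.0129), nor was Podxl, which lines the lumen (log2 fold change 0.36 ± 0.23 SE, adjusted p = 0.234). N-cadherin, Cdh2, which replaces E-cadherin in mesoderm, had 7.15, 7.36 and 18.0 TPM against 3.70, 2.88 and 6.32 TPM (log2 fold change 1.09 ± 0.30 SE, adjusted p = 0.0120), and its call was lost in 4 of 15 alternatives. Cdh2 was not called without ESC-derived 3D EpiSC replicate 3 or EpiLC replicate 2 (log2 fold change 0.69 to 0.89, adjusted p of 0.0202 to 0.0489). Of the 7 EMT genes tested, Mmp14 was the other higher one (log2 fold change 1.25 ± 0.14 SE, adjusted p = 3.05e-05), and fibronectin, Fn1, was lower at 18.0, 16.96 and 29.5 TPM against 51.5, 73.4 and 65.5 TPM (log2 fold change -1.55 ± 0.23 SE, adjusted p = 2.43e-04), as was Mmp2 (log2 fold change -1.12 ± 0.16 SE, adjusted p = 1.80e-04). Mmp2 was not called without EpiLC replicate 1 (log2 fold change -0.96, adjusted p of 5.39e-04). Of 17 basement membrane genes, 1 was higher and 1, Smoc1, was lower (log2 fold change -1.34 ± 0.13 SE, adjusted p = 1.23e-05), and the number lower was 2 without any 1 of the ESC-derived 3D EpiSC replicates and 3 without EpiLC replicate 2. Of 13 integrins and matrix receptors, Itgb5 was higher (log2 fold change 1.31 ± 0.14 SE, adjusted p = 1.59e-05) and the laminin receptor gene Itga3 (log2 fold change -1.16 ± 0.10 SE, adjusted p = 3.16e-06) and the proteoglycan gene Sdc4, at 9.73, 10.8 and 19.3 TPM against 82.5, 70.9 and 88.8 TPM (log2 fold change -2.57 ± 0.23 SE, adjusted p = 5.50e-06), were lower. The number higher was 2 without EpiLC replicate 1.

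Guidance molecules, first described in axons, were higher where they were called, with 1 exception. For comparison, 4.78% of all genes tested were higher and 7.91% lower. Of 21 semaphorins, plexins, Slits and netrins, 4 were higher, led by Slit3 at 24.2, 23.4 and 33.0 TPM against 2.76, 2.27 and 2.49 TPM (log2 fold change 2.98 ± 0.17 SE, adjusted p = 1.09e-07), and Sema4a was lower (log2 fold change -1.63 ± 0.18 SE, adjusted p = 3.13e-05). The number higher was 2 without EpiLC replicate 2 and 3 to 5 without any other library. Of 16 ephrins and Eph receptors, Ephb2 (log2 fold change 1.78 ± 0.19 SE, adjusted p = 1.80e-05), Efna5 (log2 fold change 1.39 ± 0.19 SE, adjusted p = 1.19e-04) and Epha7 (log2 fold change 1.37 ± 0.19 SE, adjusted p = 1.81e-04) were higher and none lower, with 1 lower without EpiLC replicate 2.

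Imprinted genes moved in both directions. Of 38 tested, 5 were higher and 6 lower, with a median of -0.07, and 3 were higher without ESC-derived 3D EpiSC replicate 1 or replicate 2. Of the 38, 3 passed the filter in EpiLCs alone and 1 in ESC-derived 3D EpiSCs alone. For these, passing it and direction are linked. Among all genes tested 4.78% were higher and 7.91% lower. Gab1, an adaptor of receptor kinases, fell from 162, 172 and 164 TPM in EpiLCs to 12.5, 12.2 and 11.4 TPM in ESC-derived 3D EpiSCs (log2 fold change -3.68 ± 0.08 SE, adjusted p = 1.01e-10), and Sfmbt2 and Peg10 were lower (log2 fold change -2.38 ± 0.17 SE, adjusted p = 9.19e-07 and log2 fold change -1.42 ± 0.27 SE, adjusted p = 0.00155). Grb10, an inhibitor of insulin signalling, rose to 55.6, 56.1 and 168 TPM from 16.2, 13.8 and 20.9 TPM (log2 fold change 2.20 ± 0.42 SE, adjusted p = 0.00150), and Gnas to 556, 623 and 634 TPM from 199, 177 and 146 TPM (log2 fold change 1.80 ± 0.12 SE, adjusted p = 5.29e-07). Which allele was expressed was not analysed here.

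MHC class I presentation genes were lower where they were called. Of 15 tested, 7 were lower and none higher, with a median of -0.80, where 7.91% of all genes tested were lower. For 2 of the 15, only EpiLC libraries exceeded 2 TPM, so their passing the filter and their direction are linked. Irf1, an interferon-responsive transcription factor, had 24.6, 23.8 and 22.8 TPM in ESC-derived 3D EpiSCs and 99.0, 109 and 84.8 TPM in EpiLCs (log2 fold change -1.99 ± 0.18 SE, adjusted p = 6.01e-06). The immunoproteasome gene Psmb10 had 45.0, 45.8 and 33.1 TPM and 107, 135 and 87.8 TPM (log2 fold change -1.39 ± 0.20 SE, adjusted p = 2.47e-04), and Psmb8, Psmb9, Tap1, Tapbp and H2-M3 were the others. Psmb9 lost its call without ESC-derived 3D EpiSC replicate 1 or EpiLC replicate 2 (log2 fold change -0.97 to -0.93, adjusted p of 0.00729 to 0.00775). Tap1 was not called without ESC-derived 3D EpiSC replicate 3 or EpiLC replicate 1 (log2 fold change -0.97 to -0.93, adjusted p of 0.00702 to 0.00874). Of 25 p53 target and apoptosis genes, 4 were lower and 1 higher, where 7.91% and 4.78% of all genes tested were. Pmaip1 (Noxa), which promotes apoptosis, had 6.35, 6.52 and 1.76 TPM against 92.2, 70.1 and 102 TPM (log2 fold change -4.04 ± 0.31 SE, adjusted p = 1.51e-06), and Mcl1, which opposes it, had 124, 122 and 97.7 TPM against 261, 293.9 and 322 TPM (log2 fold change -1.35 ± 0.11 SE, adjusted p = 2.97e-06). Casp8, an initiator caspase, was higher at 8.04, 7.75 and 13.7 TPM against 1.32, 1.17 and 1.75 TPM (log2 fold change 2.13 ± 0.18 SE, adjusted p = 2.97e-06). It passed the filter in ESC-derived 3D EpiSCs alone, so its passing the filter and its direction are linked.

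Of 23 G1 cyclins and CDK inhibitors, 2 were higher and 3 lower, where 4.78% and 7.91% of all genes tested were. These counts describe single genes and not the list. Ccnd2 (cyclin D2) had 12.1, 12.9 and 28.8 TPM against 3.28, 2.17 and 2.34 TPM (log2 fold change 2.30 ± 0.33 SE, adjusted p = 1.97e-04) and its kinase gene Cdk6 28.5, 27.6 and 60.2 TPM against 12.8, 10.9 and 11.3 TPM (log2 fold change 1.56 ± 0.27 SE, adjusted p = 7.96e-04). The adjacent inhibitor genes Cdkn2a (log2 fold change -2.99 ± 0.33 SE, adjusted p = 2.32e-05) and Cdkn2b (log2 fold change -1.74 ± 0.30 SE, adjusted p = 7.65e-04) were lower, the former at 2.75, 2.05 and 1.83 TPM against 27.4, 33.8 and 15.6 TPM.

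Several of the 15 largest rises belonged to no list above. Penk, which encodes the opioid precursor proenkephalin, had 58.2, 59.3 and 85.5 TPM in ESC-derived 3D EpiSCs and 2.57, 1.82 and 2.74 TPM in EpiLCs (log2 fold change 4.33 ± 0.19 SE, adjusted p = 1.22e-08), and its mean was 108 TPM in 2D EpiSCs and 0.366 TPM in embryo-derived 3D EpiSCs. The zinc transporter gene Slc39a8 had 49.4, 50.8 and 93.6 TPM against 2.62, 1.54 and 2.52 TPM (log2 fold change 4.30 ± 0.22 SE, adjusted p = 3.97e-08). Pkdcc, a secreted kinase, was close among replicates, at 59.5, 52.8 and 77.1 TPM against 4.34, 4.34 and 4.32 TPM (log2 fold change 3.57 ± 0.13 SE, adjusted p = 2.10e-09). The linker histone gene H1fx had 39.4, 35.8 and 40.2 TPM against 0, 0 and 17.8 TPM, with zeros in 2 EpiLC libraries and a value of the same order as in ESC-derived 3D EpiSCs in the third (log2 fold change 3.89 ± 0.85 SE, adjusted p = 0.00341). Among the falls, Wt1, a zinc finger factor of kidney and gonad development, had 0.271, 0.156 and 0.292 TPM against 42.4, 63.7 and 89.5 TPM (log2 fold change -5.68 ± 0.32 SE, adjusted p = 9.36e-08).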

How the data were processed

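Bulk RNA-seq of 3 ESC-derived 3D EpiSC and 3 EpiLC libraries was taken from a table of TPM values that the authors deposited, made from poly-A RNA with cutadapt 2.4, STAR and StringTie on mm10, per the submitters' processing notes. Each library's TPM values add up to one fixed total and keep no depth, so read depth is unknown and counts were not used here. Groups came from the sample labels, and 12 in vitro libraries of 4 groups entered 1 fit. Genes that were autosomal with TPM above 2 in at least 3 of the 6 compared libraries were tested on log2(TPM + 1) with limma 3.58.1 (R 4.3.3, eBayes without trend), with Benjamini-Hochberg adjustment over 12418 genes, and called when the adjusted p was under 0.05 and the log2 change beyond 1 in size. The fold changes understate those of low genes. The fit was tested on simulated data. The authors' own test used DESeq2 on raw counts.

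Named genes were, in each direction, the 15 called genes with the largest change whose libraries did not overlap, predicted models left out, and up to 6 called and the defining members of gene lists. Further called members, the chromosome 4 genes and the microRNA cluster were named after their values were seen. Members and lists were chosen with earlier results of these data known. The alternatives were a pseudocount of 0.1, no low-value filter, protein-coding genes, median-of-ratios rescaling, the 6 libraries alone, an intensity trend, library weights, averaging near-identical replicates, a replicate block, and leaving out each library. Some items are not reported here.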

Additional observations from a re-analysis of the deposited data

How the results depend on the processing

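Across 15 alternative analyses the number of higher genes ranged from 495 (library weights) to 763 (pseudocount of 0.1) and that of lower genes from 925 to 1292 (no filter on low values), each within 1.5 times the reported 593 and 982, and no gene called in the report was called the other way. Leaving out 1 library gave 513 to 679 higher and 925 to 1088 lower genes. The replicate block gave 592 higher and 983 lower genes. Deviations of same-numbered libraries from their group means correlated by -0.08, 0.03 and -0.13, and those of other pairs by -0.16 to 0.16. These values cannot show whether same-numbered libraries shared a batch. Rescaling gave 610 and 981. Of 208 genes named and tested, 169 kept their side of the threshold in every alternative that tested them, and none reversed. The cause of each lost call was not tested. TPM values carry no depth, so low values cannot be given a counting error, and a gene listed at 0 may be below detection.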

Other observations

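The comparison was confined to autosomal genes, and the X chromosome is described here without a test, by genes chosen after their values were seen. Of 499 X-linked genes past the same filter, 57 had all 3 ESC-derived 3D EpiSC libraries below all 3 EpiLC libraries with a mean difference over 1 log2 unit (11.4%), and 37 had all 3 above (7.41%), with a median difference of 0.09 over the 499. By the same rule, 973 of the 12418 autosomal genes lay below (7.84%) and 595 above (4.79%). Rhox5, a homeobox gene of the reproductive tract and placenta, had 1.14, 1.22 and 1.22 TPM in ESC-derived 3D EpiSCs and 478, 641 and 466 TPM in EpiLCs. Nr0b1 (Dax1), a nuclear receptor of the naive network, had 0.0686, 0.109 and 0.192 TPM in ESC-derived 3D EpiSCs and 10.3, 12.5 and 10.7 TPM in EpiLCs. The X-linked genes Rbmx, an RNA-binding protein, and Nsdhl, a cholesterol enzyme, had 72.4, 69.5 and 58.4 TPM in ESC-derived 3D EpiSCs and 14.2, 7.74 and 13.3 TPM in EpiLCs for the former and 162, 166 and 87.9 TPM in ESC-derived 3D EpiSCs and 37.8, 49.0 and 38.0 TPM in EpiLCs for the latter.

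The next 6 genes were picked from outside the lists because their values were low, and say nothing of their families as a whole. Oasl2, an antiviral protein of the oligoadenylate synthetase family, had 0.518, 0.406 and 0.652 TPM in ESC-derived 3D EpiSCs and 13.6, 12.3 and 12.5 TPM in EpiLCs (log2 fold change -3.18 ± 0.11 SE, adjusted p = 2.17e-09). Ifi35 had 1.56, 1.76 and 1.72 TPM and 21.5, 22.6 and 23.3 TPM (log2 fold change -3.13 ± 0.19 SE, adjusted p = 1.65e-07), and the GTPase genes Irgm1 and Igtp changed by -2.50 and -2.18. Gli1 and Ptch1, targets of Hedgehog signalling, were the others, with Ptch1 at 6.22, 4.89 and 13.4 TPM against 37.1, 32.7 and 44.9 TPM (log2 fold change -2.20 ± 0.28 SE, adjusted p = 8.03e-05) and Gli1 at 0.354, 0.575 and 0.550 TPM against 5.65, 5.39 and 6.26 TPM (log2 fold change -2.18 ± 0.14 SE, adjusted p = 2.23e-07).

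Among smaller lists, 3 of 12 YAP target genes were higher (Cyr61, Fjx1 and Amotl1) and Nuak2 was lower. Amotl1 was not called without ESC-derived 3D EpiSC replicate 3 or EpiLC replicate 2 or 3 (log2 fold change 0.79 to 0.96, adjusted p of 0.00439 to 0.0117). The list then had 2 higher genes. Of 2 trophoblast genes tested, Eomes was higher and Elf3 lower. Elf3 was not called without ESC-derived 3D EpiSC replicate 1 or 2 or EpiLC replicate 2 (log2 fold change -0.98 to -0.93, adjusted p of 0.0183 to 0.0201). Of 3 fibroblast genes tested, Dcn (decorin) was lower, at 1.29, 1.23 and 0.342 TPM against 12.03, 19.5 and 26.1 TPM (log2 fold change -3.35 ± 0.25 SE, adjusted p = 1.19e-06). Dcn passed the filter in EpiLCs alone, so its passing the filter and its direction are linked.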
